A study of Mus musculus with 39 samples.

Results

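The comparison is of 5-methylcytosine (5mC) in mouse embryonic stem cells (mESC) that lack p53 and in wild-type (WT) mESC, both after treatment with retinoic acid (RA). Its members are the 200 bp tiles of the deposited tile table with a 5mC value for both genotypes in the second of that table's sets of columns, and they number 252014 of 377684 tiles. The measure is the p53-null level minus the WT level in percentage points, and negative values mean less 5mC in p53-null cells.

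The p53-null cells carried the 129s-Trp53tm2Tyj/J allele on both copies, and the WT cells came from the same crosses of heterozygous mice. The lines were derived from E2.5 morulas in 2i medium on irradiated mouse fibroblast feeders, and the cells were taken off feeders onto gelatin before treatment. Both genotypes then spent 16 h in differentiation medium and 4 days with 1 µM RA, renewed daily. The 8 oxRRBS libraries are 4 of p53-null and 4 of WT cells, and the table holds 1 pooled column per genotype. The labels do not say how many lines or clones the libraries stand for, nor the sex of the lines. The headings of the tile table name no cell state. The second set was taken as RA-treated by rule, and its total methylation lay closer to the columns of the single-CpG table that are named RA. Over 95601 tiles the median gap between the second set's total methylation and those columns was 1.504 points for p53-null and 1.83 points for WT. The gap to the columns named NT was 4.51 points for p53-null and 7.23 points for WT. The first set had its smallest gaps to the columns named NT and is called the naive set here.

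Methylation of cytosine in CpG dinucleotides is written by the Dnmt3 enzymes, copied at replication by Dnmt1 and removed in part by way of 5-hydroxymethylcytosine (5hmC), which the TET enzymes make from 5mC. mESC kept in 2i medium have low methylation, and methylation increases as they leave the naive state. p53, encoded by Trp53, is a transcription factor activated by DNA damage and other stress, and in mESC it is known to favour differentiation. Reduced representation bisulfite sequencing (RRBS) reads CpGs near MspI sites and counts 5mC and 5hmC together as total methylation. oxRRBS adds an oxidation step so that 5mC alone is read as methylated.

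Because each genotype is 1 pooled column, there is no replicate spread and no test between genotypes was possible. The number of reads behind a tile is unknown. SDs below are over tiles, windows or chromosomes of the same libraries, and they are not an error of the genotype difference. The RRBS columns of the same set come from other libraries, 4 of p53-null and 5 of WT cells, and serve as a second measurement. No gene annotation of build mm9 was used here, so regions are given by mm9 position and were not assigned to genes.

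RA-treated p53-null cells had less 5mC than RA-treated WT cells. Mean 5mC over the 252014 tiles was 36.4% in p53-null and 40.5% in WT cells, a difference of -4.07 points, so that the p53-null level was 89.96% of the WT level. The median tile stood at 39.9% in p53-null and 45.2% in WT cells, and the median of the tile differences was smaller, at -1.52 points. Total methylation in the separate RRBS libraries was 39.3% in p53-null and 42.5% in WT cells, a difference of -3.18 points. The middle 50% of tile differences in 5mC lay between -10.8 and 1.67 points, and the SD over tiles was 13.1 points. In the 52394 tiles with 2 or more CpGs of the single-CpG table the mean difference was smaller, -1.18 points.

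Tiles with less 5mC in p53-null cells outnumbered those with more at each size examined. Of any size, 60.5% of tiles were lower and 36.2% higher. By at least 10 points, 67417 tiles (26.8% of those compared) were lower in p53-null cells and 24848 (9.86%) were higher, which is 2.71 lower tiles for each higher one. By at least 25 points, 16135 tiles (6.4%) were lower and 4389 (1.74%) were higher, a ratio of 3.68. By at least 50 points, 853 (0.338%) were lower and 193 (0.0766%) higher, a ratio of 4.42. In total methylation 52054 tiles (20.7%) were lower and 16922 (6.71%) higher by at least 10 points. No tile was tested singly, and these are counts by size alone.

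High levels were rarer in p53-null cells, and the lower and middle parts of the scale were fuller. Tiles at 80% or more made up 2.27% of p53-null and 5.57% of WT tiles, and tiles at 60 to 80% made up 17.96% of p53-null and 24.1% of WT tiles. Tiles under 20% made up 30.4% of p53-null and 28.6% of WT tiles. Within these, tiles listed at exactly 0 were fewer in p53-null cells, 5.37% against 7.48% in WT cells. In the middle of the scale, 49.4% of tiles lay between 20 and 60% in p53-null cells and 41.7% in WT cells. The SD of levels over tiles was 25.1 points in p53-null and 27.5 points in WT cells. In total methylation, 2.55% of p53-null and 5.07% of WT tiles were at 80% or more, and 27.8% of p53-null and 26.6% of WT tiles were under 20%. There too fewer tiles were listed at 0 in p53-null cells, 4.48% against 6.05% in WT cells.

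**Figure D1:**
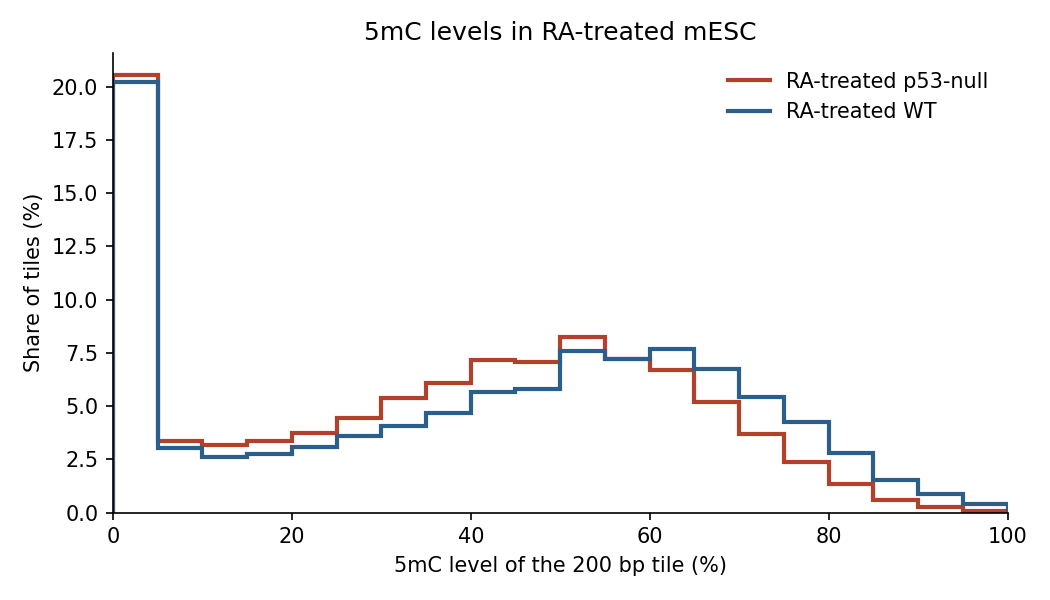
Share of the 252014 tiles (vertical axis, %) by 5mC level in steps of 5 points (horizontal axis, %) for RA-treated p53-null and WT cells. The p53-null line lies above the WT line in the steps from 0 to 55%, narrowly so below 5%, and below it above 60%.

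Mean 5mC was lower in p53-null than in WT cells on 20 of 20 chromosomes. The chromosome means of the difference ran from -4.66 points on chromosome 14 to -3.16 points on chromosome 2, with an SD over chromosomes of 0.449. On chromosome 14 the means were 36.8% in p53-null and 41.4% in WT cells, and on chromosome 2 they were 35.7% in p53-null and 38.9% in WT cells. Total methylation was likewise lower on 20 of 20 chromosomes, between -3.66 points on chromosome 14 and -2.08 points on chromosome X. Among tiles at 20 to 80% in the naive set, chromosome X had a difference of -3.69 points, with 48.6% in p53-null and 52.3% in WT cells. Its levels were below those of the 19 autosomes, which lay at 51.5 to 55.0% in p53-null and 56.7 to 59.2% in WT cells. Without the segment of chromosome X described further on, its difference in that class was -5.29 points, within the range of the autosomes. The widest difference in that class was on chromosome 18, -6.33 points, with 52.7% in p53-null and 59.1% in WT cells.

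**Figure D2:**
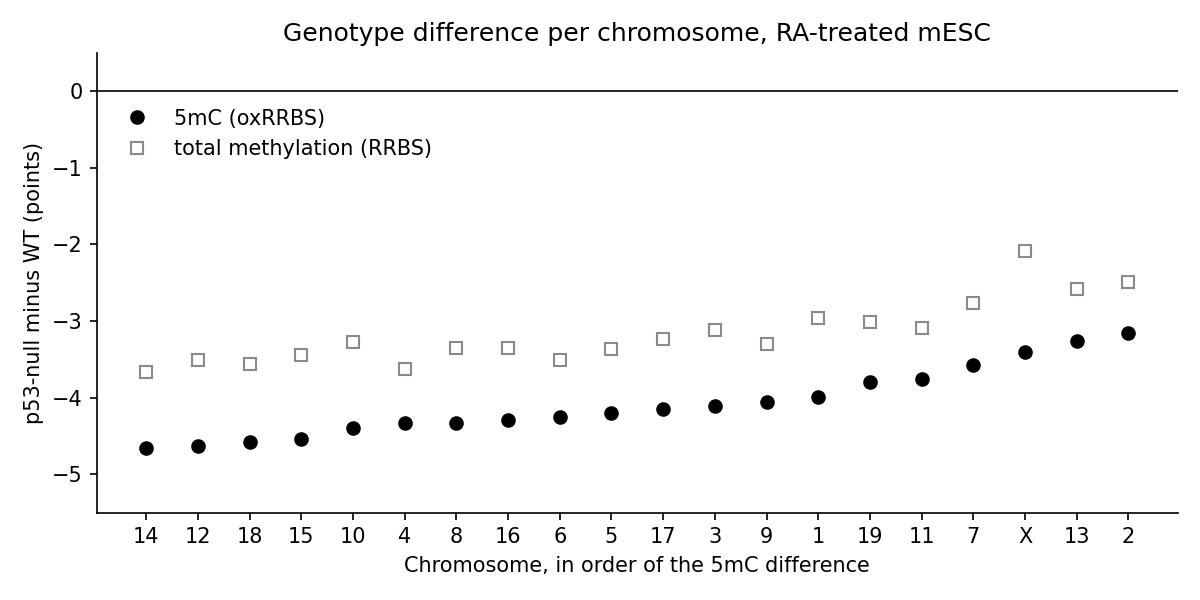
Difference between p53-null and WT cells after RA (vertical axis, points) for each chromosome, ordered by the 5mC difference, in 5mC (filled circles) and in total methylation (open squares). All 20 circles and all 20 squares lie below 0, and chromosome X has the smallest difference in total methylation, -2.08 points.

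The difference depended on how methylated a tile was in the naive set, whose libraries are separate from the RA-treated ones. Tiles under 5% in the naive set, 58934 of them, had 5.70% 5mC in p53-null and 6.40% in WT cells after RA, a difference of -0.707 points. Tiles at 5 to 20% had 31.4% in p53-null and 35.5% in WT cells, a difference of -4.02 points. The difference was -5.48 points at 20 to 40%, and it was widest at 40 to 60%, where 47483 tiles had 55.0% in p53-null and 60.9% in WT cells, a difference of -5.86 points. It was -4.92 points at 60 to 80% and -4.50 points in the 3192 tiles at 80% or more. In each of these 6 classes all 20 chromosome means were lower in p53-null cells.

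Set against the WT level, the classes were more alike. The p53-null mean was 89.0% of the WT mean in tiles under 5% in the naive set, 88.7% at 5 to 20%, 90.4% at 40 to 60% and 93.9% at 80% or more. Total methylation had its widest difference in the same class, -4.40 points at 40 to 60%. When tiles were instead classed by their own total methylation after RA, the 5mC difference was -0.0778 points under 5%, -6.07 points at 40 to 60% and -3.74 points at 80% or more.

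**Figure D3:**
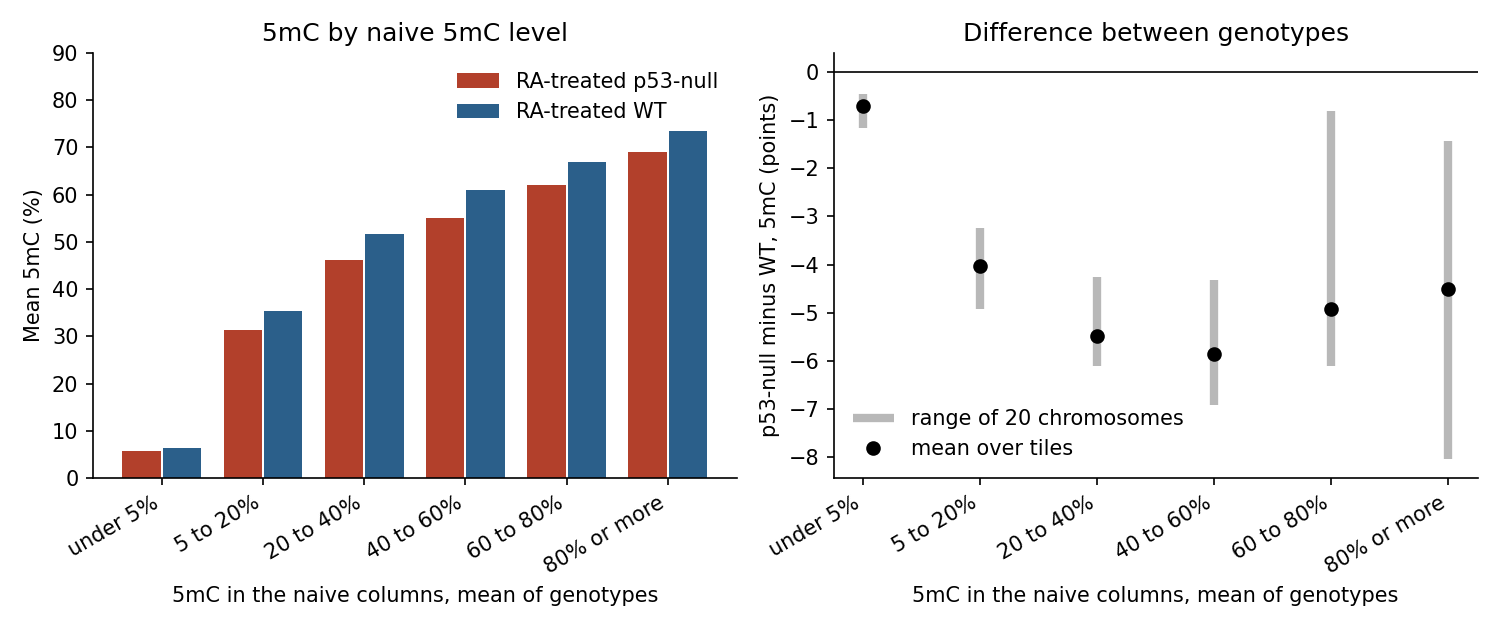
Left, mean 5mC (%) after RA in p53-null and WT cells by the 5mC level of the tile in the naive set. Right, p53-null minus WT in points, with the mean over tiles as a circle and the range of the 20 chromosome means as a grey bar. All bars lie below 0, and the mean is widest, -5.86 points, at 40 to 60%.

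In points the difference was smallest in CpG-dense sequence, of the kind found in CpG islands, which stays largely unmethylated in most cells. Density was taken as the number of CpGs of the authors' single-CpG table inside a tile, a count of measured CpGs and not of all CpGs. The 146707 tiles with 0 such CpGs had 45.3% 5mC in p53-null and 50.6% in WT cells, a difference of -5.28 points. Tiles with 1 had a difference of -3.56 points, and tiles with 2 to 3 a difference of -2.02 points. Tiles with 4 to 8 had 3.15% in p53-null and 3.48% in WT cells, a difference of -0.332 points. The 7054 tiles with 9 or more had 0.342% in p53-null and 0.357% in WT cells, and 14 of 20 chromosome means were lower in p53-null cells. The gradient in points went with the level: the p53-null mean was 89.6% of the WT mean at 0 CpGs, 91.0% at 1 and at 2 to 3, 90.5% at 4 to 8 and 95.7% at 9 or more.

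Distance from such dense tiles gave the same gradient. Tiles 200 to 2000 bp from a dense tile had 4.73% 5mC in p53-null and 5.24% in WT cells, a difference of -0.504 points. At 2200 to 10000 bp the levels were 35.4% in p53-null and 38.6% in WT cells, a difference of -3.11 points. Beyond 10000 bp and up to 50000 bp the difference was -3.42 points. The 162591 tiles more than 50000 bp away had 41.1% in p53-null and 46.1% in WT cells, a difference of -4.95 points. Level and distance move together, so the same distances were read within tiles at 40 to 60% in the naive set. There the difference was -3.85 points in the 215 tiles at 200 to 2000 bp, -4.20 points at 2200 to 10000 bp, -4.66 points from there to 50000 bp and -6.26 points beyond 50000 bp.

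The tile count of a region moved with the 5mC difference as well. Windows of 1 Mb with 1 to 49 tiles had 39.97% 5mC in p53-null and 45.6% in WT cells, a difference of -5.60 points. Windows with 200 or more tiles had 32.6% in p53-null and 35.8% in WT cells, a difference of -3.27 points. Within tiles at 40 to 60% in the naive set, the difference was -6.66 points in windows with 1 to 49 tiles and -5.46 points in windows with 200 or more. In 5mC the wider differences lay in windows with fewer measured tiles in both comparisons. The total methylation difference over all tiles was -3.86 points with 1 to 49 tiles per window and -2.79 points with 200 or more. Within tiles at 40 to 60% in the naive set it showed no such gradient, at -4.31 points with 1 to 49 tiles and -4.33 points with 200 or more.

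On the scale of 1 Mb windows with at least 20 tiles, 2469 of 2520 had less 5mC in p53-null than in WT cells. The median window differed by -4.33 points, with the middle 50% of windows between -6.12 and -2.86 points. In 2411 windows both 5mC and total methylation were lower in p53-null cells, and in 16 both were higher. Over the 2520 windows the 5mC and total differences had a Pearson r of 0.539. The assays used separate libraries but the same cell groups and the same tiles, so this r is a description.

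The window with the most negative difference was chr12:108000001-109000000, where 88 tiles averaged 44.1% 5mC in p53-null and 58.9% in WT cells, a difference of -14.8 points. Total methylation there was 49.2% in p53-null and 59.1% in WT cells. chr4:103000001-104000000, with 63 tiles, had 42.7% in p53-null and 57.1% in WT cells. The other windows among the 5 lowest held 22 to 35 tiles and lay on chromosomes X, 3 and 9, with differences of -14.6, -14.3 and -14.1 points. Total methylation was lower in p53-null cells in all 5, with differences of -9.87 to -5.30 points.

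Windows with more 5mC in p53-null cells were few, and those with the widest differences lay mainly on chromosome X. Of the 51 windows higher in p53-null cells, 15 were among the 126 windows of chromosome X and 36 among the 2394 autosomal windows. Of the 16 windows higher in both assays, 11 were on chromosome X, and 8 of the 10 highest windows lay within chrX:23000001-33000000. This segment was delimited by its highest 5mC windows after their values were seen. Its 5mC mean and its numbers of higher tiles and windows follow from that choice and are descriptions. Its 584 tiles had 47.9% 5mC in p53-null and 44.3% in WT cells, a difference of 3.61 points. Its total methylation was 48.5% in p53-null and 46.0% in WT cells, a difference of 2.55 points. Of its tiles, 182 had more 5mC in p53-null cells by at least 10 points and 79 had less, which is 31.2% higher against 9.86% of all tiles. The tiles were unlike in level too: WT 5mC was at 20 to 80% in 93.3% of its tiles, against 65.7% of autosomal tiles.

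Within the segment 9 of 10 windows were higher in p53-null cells in 5mC, and 9 of 10 in total methylation. The highest was chrX:32000001-33000000, with 54.0% 5mC in p53-null and 45.6% in WT cells over 42 tiles. At chrX:29000001-30000000 the 63 tiles averaged 50.9% in p53-null and 43.8% in WT cells. The lowest window of the segment, chrX:30000001-31000000, had 48.0% in p53-null and 48.1% in WT cells. Outside the segment, chrX:130000001-131000000 was also among the 5 highest windows, with 47.2% 5mC in p53-null and 42.1% in WT cells over 23 tiles. Its total methylation went the other way, 43.9% in p53-null and 48.1% in WT cells. Among its tiles with 5mC values in both sets the 5mC difference was 0.689 points. The rest of chromosome X had 35.1% in p53-null and 39.4% in WT cells, a difference of -4.24 points, against -4.08 points on the autosomes.

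In the naive set the same segment also held more 5mC in p53-null cells, 65.8% against 42.9% in WT cells, a difference of 22.9 points. In that set the rest of chromosome X differed by 9.41 points and the autosomes by 9.25 points. These means are over tiles of all levels, and the naive difference varied with level. Over all chromosomes it was 0.156 points in tiles under 5% in the naive set, 16.8 at 40 to 60% and 15.9 at 60 to 80%. The segment was not compared with tiles of like level. Only 6.34% of the segment's tiles held a CpG of the single-CpG table, against 42.1% of autosomal tiles. In its 11 tiles with 2 or more such CpGs the difference after RA was -4.06 points in 5mC and -3.81 points in total methylation, the opposite sign to the segment's mean. The labels give no sex for the lines, and any difference in X chromosomes between the p53-null and WT lines cannot be told apart from genotype. At the near end of chromosome X, chrX:3000001-4000000 had 43.5% in p53-null and 42.3% in WT cells, and its total methylation was 48.6% in p53-null and 44.0% in WT cells.

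**Figure D4:**
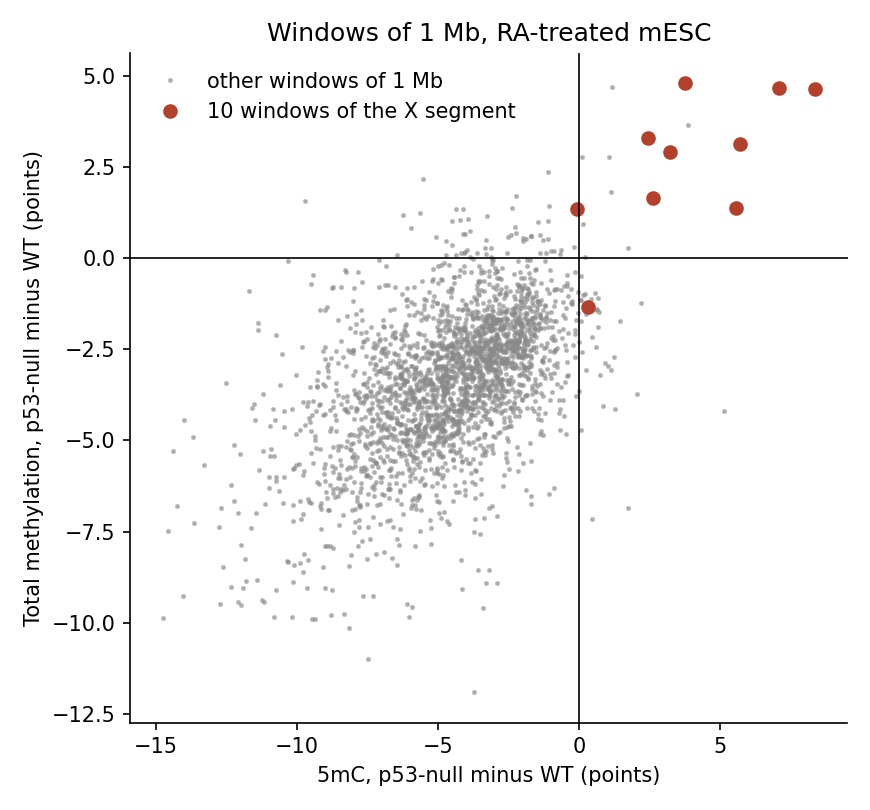
Each point is 1 of 2520 windows of 1 Mb, placed by the p53-null minus WT difference after RA in 5mC (horizontal axis, points) and in total methylation (vertical axis, points). Most grey points lie in the lower left, and 8 of the 10 windows of the chromosome X segment (red) lie above 0 on both axes.

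**Figure D5:**
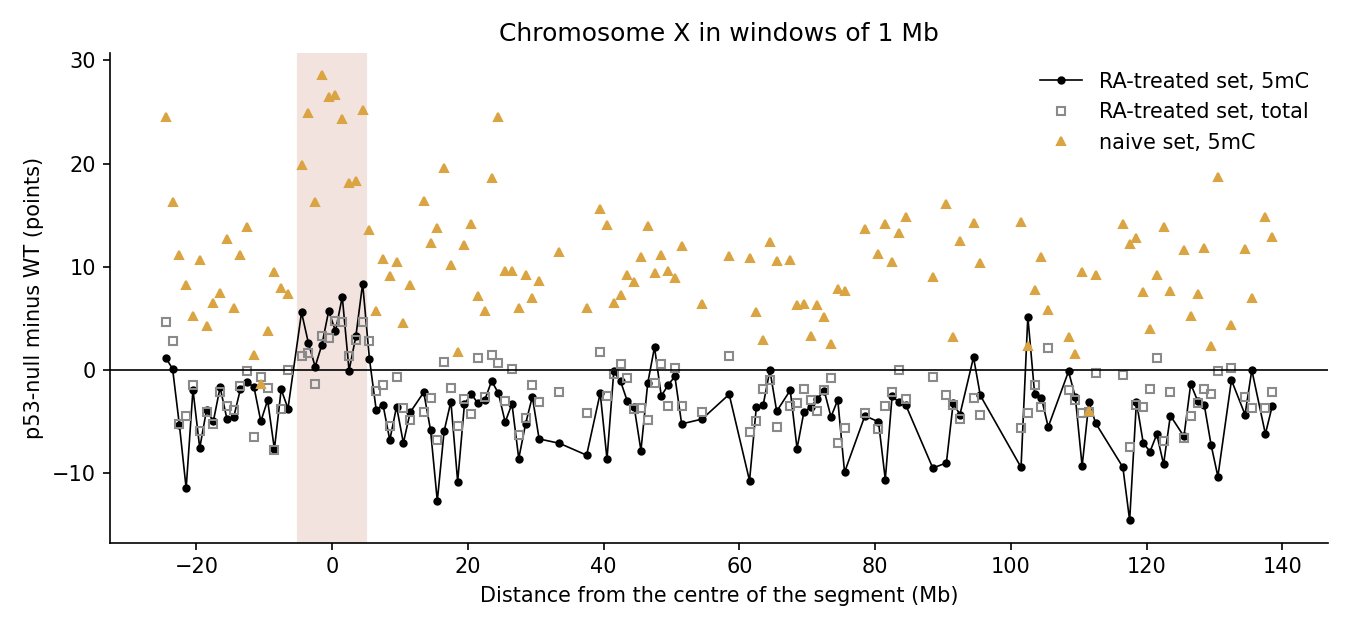
p53-null minus WT difference (vertical axis, points) in windows of 1 Mb along chromosome X, by distance in Mb from the centre of the segment (shaded), for 5mC and total methylation after RA and for 5mC in the naive set. In the shaded segment the 5mC difference after RA averages 3.61 points, and the naive difference 22.9 points.

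Away from chromosome X, the highest window was chr3:6000001-7000000, with 51.7% 5mC in p53-null and 47.9% in WT cells over 54 tiles. Its total methylation was 51.9% in p53-null and 48.3% in WT cells. Among its tiles at 20% or more in the naive set the 5mC difference was 0.806 points, against 3.88 points in all its tiles. It also held the run of neighbouring tiles higher in p53-null cells described further on.

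For single tiles the 2 assays shared little of the difference. Over 252014 tiles the 5mC and total differences had a Pearson r of 0.123. Of the 16135 tiles lower in p53-null cells by at least 25 points in 5mC, 69.7% were also lower in total methylation and 38.7% were lower by at least 10 points, where 61.2% and 20.7% of all tiles were. Their total methylation averaged 51.9% in p53-null and 58.3% in WT cells, although their 5mC averaged 36.8% in p53-null and 70.5% in WT cells. Their WT 5mC thus lay above WT total methylation, which counts 5mC too, so the levels of tiles chosen by their 5mC difference cannot be taken as exact. Of the 252014 tiles, 205378 had 5mC less than 10 points above total methylation in both genotypes.

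Tiles higher in p53-null cells were on average not higher in total methylation. Of the 4389 tiles higher by at least 25 points in 5mC, 40.6% were higher in total methylation and 16.1% were higher by at least 10 points, where 36.1% and 6.71% of all tiles were. Their median total difference was -2.86 points, on the other side of 0. Their 5mC averaged 65.3% in p53-null and 32.3% in WT cells, and their total methylation 54.4% in p53-null and 57.6% in WT cells. Here it was the p53-null 5mC that lay above the total methylation that includes it. The share that went the same way by any size was close to level across sizes of the 5mC difference: of the 853 tiles lower by at least 50 points, 69.9% were lower in total methylation. The share that went the same way by at least 10 points increased with size. For lower tiles it was 32.5% at 10, 38.7% at 25 and 44.8% at 50 points, and for higher tiles it was 13.3% at 10, 16.1% at 25 and 21.8% at 50 points.

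Tiles were also chosen by the other assay. The 6711 tiles (2.66% of all) lower in p53-null cells by at least 25 points in total methylation had 46.3% 5mC in p53-null and 54.9% in WT cells. The 1585 tiles (0.629%) higher by that much in total methylation had 48.7% 5mC in p53-null and 51.4% in WT cells, so the mean of their 5mC was still lower in p53-null cells. By at least 25 points in both assays, 1258 of the 252014 tiles were lower and 111 higher in p53-null cells. In 5mC alone 6.4% of tiles were lower and 1.74% higher by that much, and the overlap that the shares of the 2 assays would give was not computed.

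Runs of neighbouring tiles, like single tiles, were more often lower than higher in p53-null cells. Runs were taken as 3 or more tiles with starts at most 600 bp apart, each moved by at least 10 points the same way, and 926 were lower and 81 higher in p53-null cells. They held 2944 of the 67417 lower tiles and 255 of the 24848 higher tiles. Single tiles were already lower in 26.8% and higher in 9.86% of cases, and the number of runs these shares alone would give was not computed. The median lower run had 41.2% 5mC in p53-null and 62.6% in WT cells, and 81.5% of lower runs were also lower in total methylation, 29.9% of them by at least 10 points. Of the higher runs, 58.02% were higher in total methylation and 13.6% by at least 10 points. Of single tiles chosen at 10 points, 69.8% of the lower and 40.7% of the higher ones went the same way by any size, and 32.5% and 13.3% did by at least 10 points. Runs thus had larger shares than single tiles by any size, but not by at least 10 points for lower runs. A run's value is a mean over 3 or more tiles, so these shares are not like for like. The share among all groups of neighbouring tiles was not computed.

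The run with the most tiles was chr12:26733201-26734600, where 7 tiles averaged 11.8% 5mC in p53-null and 27.7% in WT cells. Its total methylation was 16.4% in p53-null and 25.2% in WT cells, and in the naive set its 5mC was 3.93% in p53-null and 6.90% in WT cells. The 6 tiles of chr14:20312801-20314400 had 28.0% in p53-null and 59.9% in WT cells, with total methylation of 39.5% in p53-null and 60.3% in WT cells. Both of these regions were lower in p53-null cells in both assays.

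Some lower runs lay at regions with little 5mC in the naive set. At chr16:81035601-81036800, 5mC after RA was 8.56% in p53-null and 25.4% in WT cells, and in the naive set it was 4.64% in p53-null and 6.06% in WT cells. At chr14:11328601-11329800, 5mC after RA was 8.56% in p53-null and 22.1% in WT cells, against 4.80% in p53-null and 5.98% in WT cells in the naive set. At chr1:154088801-154089800, 5mC after RA was 19.9% in p53-null and 46.9% in WT cells, against 1.53% in p53-null and 10.4% in WT cells in the naive set. Its total methylation after RA was 28.0% in p53-null and 33.7% in WT cells, so its WT 5mC lay above the WT total methylation. Among the 10 longest lower runs, 9 were lower in total methylation, but only 4 by at least 10 points. At chr4:150281201-150282800 the difference was -28.8 points in 5mC and -0.196 points in total methylation. Not all long runs were lower in both assays: chr8:108685401-108687000 had 49.4% 5mC in p53-null and 71.6% in WT cells, but its total methylation was 64.6% in p53-null and 61.7% in WT cells.

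Among the 10 longest higher runs, 8 were higher in total methylation, 5 of them by at least 10 points. At chr2:103936001-103936800, 4 tiles averaged 53.3% 5mC in p53-null and 24.6% in WT cells, with total methylation of 51.2% in p53-null and 34.0% in WT cells. At chr12:110778401-110779400, 4 tiles averaged 40.7% in p53-null and 14.0% in WT cells, with total methylation of 39.6% in p53-null and 17.6% in WT cells. In the naive set, where most tiles had more 5mC in p53-null cells, these 2 regions did so too, 58.7% against 18.2% in WT cells at the chromosome 2 run and 65.3% against 13.6% in WT cells at the chromosome 12 run. The run at chr3:6303601-6304800 had 59.9% in p53-null and 36.2% in WT cells over 5 tiles, with total methylation of 51.1% in p53-null and 40.4% in WT cells.

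The tiles with the widest differences were read only where total methylation had moved the same way by at least 25 points. The 10 lowest such tiles differed by -80.9 to -64.7 points in 5mC, and the 10 highest by 50 to 72.2 points. In all 10 of each the total difference was smaller than the 5mC difference. The tiles were ranked by their 5mC difference, which favours this outcome, so it is no separate result. A CpG of the single-CpG table lay in 0 of the 10 lowest and in 2 of the 10 highest. At chr11:89267001-89267200, 5mC was listed at 0 in p53-null and at 70.8% in WT cells, and total methylation was 5.88% in p53-null and 56.4% in WT cells. In the naive set the same tile had 7.14% 5mC in p53-null and 69.0% in WT cells, so it was low in p53-null cells in both sets. At chr5:147473201-147473400, 5mC was 5.26% in p53-null and 71.4% in WT cells, and total methylation 17.9% in p53-null and 66.7% in WT cells. At both tiles WT 5mC lay above the WT total methylation that includes it, so these levels cannot be taken as exact.

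Among the highest tiles, chr2:21927001-21927200 had 74.4% 5mC in p53-null and 15.2% in WT cells. Its total methylation was 58.3% in p53-null and 18.4% in WT cells, and in the naive set its 5mC was 14.1% in p53-null and 2.92% in WT cells. At chr12:18790001-18790200, 5mC was 90.9% in p53-null and 40% in WT cells after RA, and 87.0% in p53-null and 31.8% in WT cells in the naive set. Total methylation there after RA was 72.7% in p53-null and 38.5% in WT cells, below the 5mC in both. Of these 10 tiles, 7 had naive values, and all 7 were higher in p53-null cells there, by 1.07 to 83.3 points. Of all tiles with naive values, 68.0% were higher in p53-null cells in the naive set.

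The naive set gave the opposite sign on average. Over the 214665 tiles with 5mC in both sets, naive cells had 32.9% in p53-null and 23.7% in WT cells, a difference of 9.28 points. After RA the same tiles had 36.7% in p53-null and 40.7% in WT cells, a difference of -3.95 points. The level after RA was thus above the naive level by 3.75 points in p53-null and by 17.0 points in WT cells. The change of sign was not tested, since each of these means is of 1 pooled column.

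A tile's naive difference said little about its difference after RA. Across 214665 tiles the difference after RA and the naive difference had a Pearson r of -0.0476, with libraries that do not overlap. The 36158 tiles higher in p53-null cells by 25 points or more in the naive set had 51.7% after RA in p53-null and 57.0% in WT cells, a difference of -5.24 points. The 3888 tiles lower in p53-null cells by 25 points or more in the naive set had 52.3% after RA in p53-null and 58.3% in WT cells, a difference of -5.96 points. Within tiles at 20 to 80% in the naive set, the difference after RA lay between -6.17 and -5.34 points in all 5 classes of naive difference, and in each class it was negative on 20 of 20 chromosomes.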

How the data were processed

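RRBS and oxRRBS were run on MspI-digested DNA, and Trim Galore, BSMAP, methylKit and build mm9 are named in the submitters' processing notes. Neither their roles and versions nor the coverage filter and the way of pooling is stated in the labels. The authors deposited fractions per 200 bp tile, with 5mC and total methylation per genotype in 2 sets, and these were multiplied by 100 to percent. The authors also deposited percent values per CpG, which served to count CpGs per tile, to compare the sets with columns named by state, and, in columns with the suffix Hx, for an added comparison.

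Levels alone were used and no deposited q-value. Means, counts by size, classes, windows of 1 Mb with at least 20 tiles, and runs were computed with Python 3.11.15, numpy 2.4.6 and pandas 2.3.3. The counting steps were tested on simulated data. Pooled columns allow no test, SD between libraries or interval, and read depth is unknown. The regions named by rule are the 5 lowest and highest windows, the 10 longest runs each way, the 10 widest tiles each way with total methylation moved the same way by at least 25 points, and the extreme chromosomes, of which some are described. Named outside that rule, after their values were seen, were the X segment, other windows of chromosome X and the highest window away from it. The tiles, classes and rules were chosen with earlier results of these data known. The gene lists that were planned were not used, for want of an mm9 annotation.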

Additional observations from a re-analysis of the deposited data

Results flagged for a closer look

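The genotype difference in 5mC had opposite signs in the RA-treated and the naive set. It was -3.95 points after RA (36.7% in p53-null and 40.7% in WT cells) and 9.28 points in the naive set (32.9% in p53-null and 23.7% in WT cells). The difference after RA minus the naive difference was -13.2 points over 214665 tiles. It is listed here because the 2 sets moved opposite ways, and the difference between them was not tested. The headings of the table name no cell state, so the assignment of the sets rests on the rule and on the match with the columns named RA and NT.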

How the results depend on the processing

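No paired analysis was possible because each genotype is 1 pooled column, so no library could be left out either. Of 196 values under other settings, 140 moved by less than the spread over chromosomes or windows (or, for counts, stayed within 1.5 times). Another 54 moved further and 2 changed sign. Some of the 140 could not move, because the setting removed none of their tiles. Examples are autosomal windows with autosomes only, and naive classes with only the tiles of both sets. Tile counts at larger sizes or in subsets of tiles could not increase. The tally is therefore not a measure of how stable the results are. The mean of -4.07 points was -1.18 in tiles with 2 or more CpGs of the single-CpG table, -3.02 without tiles where 5mC exceeded total methylation by 10 points or more, -5.501 in tiles at 20% or more in the naive set, -1.52 as a median and -4.59 with each 1 Mb window counted once. In the Hx columns, added after the data were seen, it was -1.49 per tile and -0.716 per CpG. It was negative in all of these.

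In the 52394 tiles with 2 or more CpGs, 3752 were lower and 1127 higher in p53-null cells by 10 points. By that size, 26.8% of all tiles were lower and 9.86% higher. With 2 to 3 CpGs the shares were 12.6% lower and 3.83% higher. They were 1.51% and 0.400% with 4 to 8 CpGs, and 0.0142% and 0% with 9 or more. Among the 52394 tiles, 158 lower and 13 higher ones moved by 25 points in 5mC with total methylation moved by 10. Of windows with at least 20 such tiles, 838 were lower, and the number of such windows was not counted. The naive classes there were -0.270 under 5%, -3.50 at 5 to 20%, -4.19 at 20 to 40% and -4.70 at 40 to 60%. They were -3.97 at 60 to 80% and -5.60 at 80% or more, so the widest class there was not 40 to 60%. The X segment, which there holds 11 tiles, was -4.06 points in 5mC and -3.81 in total methylation, and the RA minus naive difference was -3.54.

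The counts that follow are within subsets of the 252014 tiles, so a smaller count need not be a smaller share. Without tiles where 5mC exceeded total methylation by 10 points or more, 205378 tiles remained. Of these, 44000 were lower by 10 points in 5mC. In this paragraph, in both assays means by at least 25 points in 5mC and at least 10 points in total methylation. So counted, 4068 of the 205378 tiles were lower in both assays, against 6244 of all tiles. The RA minus naive difference in the 205378 tiles was -11.5. In the 122302 tiles at 20% or more in the naive set, 43410 were lower and 14681 higher by 10 points. In the naive classes these tiles make up, 32.1 to 36.7% were lower and 11.5 to 13.8% higher by that size. There 3712 were lower and 331 higher in both assays, and the RA minus naive difference was -20.4. In the 214665 tiles of both sets 458 were higher in both assays, against 705 of all tiles. Without tiles listed at 0 or 100%, the difference was -1.11 under 5% in the naive set, -2.58 with 2 to 3 CpGs, -0.583 with 4 to 8 and -0.0766 with 9 or more, and the RA minus naive difference was -14.4. At 25 points 16135 tiles were lower and 4389 higher, and at 50 points 853 were lower and 193 higher. With starts at most 200 bp apart, 52 runs were higher, against 81 at 600 bp. The cause of these shifts was not tested. Read depth is unknown, so the limit it sets on single tiles cannot be given.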

Other observations

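The 5mC difference was shared mainly between close neighbours. Tile differences had a Pearson r of 0.268 between tiles 200 bp apart (112374 pairs), 0.131 at 400 bp, 0.0759 at 1000 bp, 0.0319 at 10000 bp and 0.00141 at 1000000 bp.

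The columns of the single-CpG table with the suffix Hx, which the sources used here do not define, lay nearest to the 5mC of the RA-treated set, with median gaps of 1.58 points for p53-null and 1.98 points for WT over 95601 tiles. On the 105307 tiles with both, the tile table gave 24.1% 5mC in p53-null and 26.4% in WT cells, and the Hx columns gave 22.8% in p53-null and 24.3% in WT cells. Over the 330387 single CpGs the Hx mean was 11.1% in p53-null and 11.8% in WT cells, a difference of -0.716 points, with 20 of 20 chromosome means lower in p53-null cells. By at least 25 points, 4858 of the 330387 CpGs were lower and 2361 higher in p53-null cells. The chromosome means of the Hx difference ran from -1.18 to -0.473 points.

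The 37349 tiles with 5mC after RA but not in both sets had 35.0% in p53-null and 39.7% in WT cells, a difference of -4.72 points, against -3.95 points in the tiles present in both.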
